A study of Homo sapiens with 6 samples.

Results

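To examine how ATP-binding cassette (ABC) genes were expressed when FOXC1 was targeted in bladder cancer cells, all ABC genes other than ABCB1 and ABCB4 were followed in RNA-seq counts of J82 cells. Members were the protein-coding genes of the count table whose symbol is ABC, 1 letter from A to G, and digits only. The rule found 43 of 57820 genes. J82 is an established human bladder cancer line grown in DMEM with 10% FBS. The 3 control libraries came from J82 cells of genotype control, which per the study's methods carried the vector. The 3 KO libraries came from J82 cells in which FOXC1, encoding a forkhead transcription factor, was targeted with LentiCRISPRv2. Per the methods the cells were kept under puromycin selection before use and KO clones were checked for protein by Western blot. No cisplatin or dye exposure is given for these libraries, and no source used here says how many clones the KO libraries stand for or whether replicates were separate cultures, so p-values measure only the spread between these libraries.

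ABC proteins share a cytosolic domain that binds and hydrolyses ATP. Most of them couple this to moving a substrate across a membrane. Members of subfamilies B, C and G export drugs and conjugates, several A and G members move sterols and phospholipids, D members such as ABCD3 carry fatty acyl-CoA into peroxisomes, and SUR-type C members gate potassium channels in place of pumping. The E and F members have the ATP-binding domain without a membrane part and act on ribosomes. In tumour cells the family is known above all for multidrug resistance, and ABCG2, the breast cancer resistance protein, exports the Hoechst dye by which side population cells are sorted.

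Library totals ran from 18408134 to 25350908 counts. The FOXC1 transcript itself did not fall in libraries with the KO label (18.2 ± 1.21 CPM in control and 22.5 ± 1.495 in KO, SD, n = 3, edgeR adjusted p 0.0127), so the transcript does not check the labels, where the study's own check was on protein, and every direction here is between the labelled groups. CPM is the read count per 1e+06 counts of the scaled library. ABCB1, the P-glycoprotein gene left out by the rule, went from 116.5 ± 5.18 to 27.4 ± 1.52 CPM (SD, n = 3). Keratins marked both groups as epithelial, while UPK1A, UPK1B, UPK2, UPK3A, KRT5 and KRT20, which mark normal urothelium or its layers, had at most 5 counts in a library. Of 12 urothelial markers 6 were tested and 5 of these were called lower (KRT8, KRT18, KRT19, GATA3 and PPARG). Over all tested genes 8.39% were called lower and 7.57% higher, which holds for the marker lists that follow as well. The urothelial list's summed level was 3176 to 3997 CPM in control and 2486 to 2763 in KO libraries. The mesenchymal list summed to 1686 to 1829 CPM in control and 1722 to 1984 in KO, with ZEB1 of its 4 genes called higher. The fibroblast list (COL1A1, COL3A1, DCN and LUM) summed to 389 to 443 CPM in control and 221 to 233 in KO, with COL3A1 and DCN called lower and COL1A1 higher. The leukocyte, endothelial and hepatocyte lists stayed at or under 6.16 CPM in sum in every library, with CD3E at 0, although CD14 and CDH5 were called higher. The part of these shifts in the results that follow was not tested.

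Promoter sequences of 6 members are shown because FOXC1 is a forkhead factor, and forkhead proteins recognise letters such as GTAAACA. The windows come from RefSeq on GRCh38.p14, a later build than the counts, and run from 250 bases before to 50 bases after an annotated start, 5′ to 3′ on the gene's strand. The letters GTAAACA were searched on both strands, as were the forms spelled ATAAACA and also GTAAATA, and capitals mark a match. In ABCA1 a second stretch in capitals marks TGACCNNNNNTAACC, the pattern of the liver X receptor (LXR) element known in this promoter. The windows are those of ABCA1 (chr9:104928106-104928405, minus strand), ABCE1 (chr4:145098061-145098360, plus strand), ABCF1 (chr6:30571192-30571491, plus strand), ABCG2 (chr4:88158810-88159109, minus strand, 1 of its 5 windows), ABCC9 (chr12:21941377-21941676, minus strand) and ABCD3 (chr1:94418139-94418438, plus strand).
ABCA1: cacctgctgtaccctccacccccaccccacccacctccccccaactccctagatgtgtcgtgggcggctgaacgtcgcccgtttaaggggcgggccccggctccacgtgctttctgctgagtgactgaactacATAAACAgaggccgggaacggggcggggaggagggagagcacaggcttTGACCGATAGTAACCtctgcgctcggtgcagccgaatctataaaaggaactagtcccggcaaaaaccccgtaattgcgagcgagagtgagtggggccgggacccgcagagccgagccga
ABCE1: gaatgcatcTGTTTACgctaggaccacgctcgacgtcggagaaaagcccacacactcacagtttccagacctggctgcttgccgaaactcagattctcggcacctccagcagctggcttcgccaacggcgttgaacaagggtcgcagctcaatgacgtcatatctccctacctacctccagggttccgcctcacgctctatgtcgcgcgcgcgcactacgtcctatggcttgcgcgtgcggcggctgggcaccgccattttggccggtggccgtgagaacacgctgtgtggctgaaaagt
ABCF1: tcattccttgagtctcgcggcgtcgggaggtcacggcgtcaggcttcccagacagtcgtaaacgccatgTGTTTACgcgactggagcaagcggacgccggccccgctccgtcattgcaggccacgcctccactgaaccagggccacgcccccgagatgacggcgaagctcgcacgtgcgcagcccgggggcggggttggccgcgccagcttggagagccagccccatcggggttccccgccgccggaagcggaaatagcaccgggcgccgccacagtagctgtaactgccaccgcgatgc
ABCG2: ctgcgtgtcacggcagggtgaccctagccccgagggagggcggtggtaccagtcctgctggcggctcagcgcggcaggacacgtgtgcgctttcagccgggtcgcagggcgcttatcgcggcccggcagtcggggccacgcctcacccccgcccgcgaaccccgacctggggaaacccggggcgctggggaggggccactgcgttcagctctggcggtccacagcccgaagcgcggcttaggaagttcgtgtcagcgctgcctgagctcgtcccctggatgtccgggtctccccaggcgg
ABCC9: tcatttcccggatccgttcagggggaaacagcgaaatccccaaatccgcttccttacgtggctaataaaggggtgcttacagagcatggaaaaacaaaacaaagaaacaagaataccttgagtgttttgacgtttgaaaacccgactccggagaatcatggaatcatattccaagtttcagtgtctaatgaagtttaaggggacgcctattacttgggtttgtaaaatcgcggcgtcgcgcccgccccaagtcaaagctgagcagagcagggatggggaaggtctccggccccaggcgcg
ABCD3: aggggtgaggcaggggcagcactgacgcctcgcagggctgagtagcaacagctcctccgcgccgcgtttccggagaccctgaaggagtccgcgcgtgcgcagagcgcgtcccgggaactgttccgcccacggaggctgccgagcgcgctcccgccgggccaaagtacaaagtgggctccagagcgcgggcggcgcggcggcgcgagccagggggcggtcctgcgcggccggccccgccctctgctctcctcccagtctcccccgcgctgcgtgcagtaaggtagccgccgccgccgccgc

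The forkhead letters stood in the windows of ABCA1, ABCE1 and ABCF1 and in none of those shown for ABCG2, ABCC9 and ABCD3. The other 4 windows of ABCG2 and the window of ABCA13 had no match either. In all, 34 members had 51 windows, and 5 of these (9.80%) held at least 1 of the letters, in ABCA1, ABCA6, ABCA10, ABCE1 and ABCF1. Of all 35116 windows 3426 (9.76%) did. ABCG1, ABCC1, ABCC3, ABCC8, ABCA4, ABCA8 and ABCB5 were among the members with no window in the table. The LXR pattern was in the window of ABCA1 alone among members and in 18 of all windows (0.0513%). Its letters were settled after the ABCA1 window was read, and a first version with a spacer of 4 letters matched 7 windows and no member. A match describes the letters and is not a binding site.

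The windows also separated members by CpG content, with no test. A window was counted as CpG-rich when CpG was seen at over 0.6 of the number that its C and G content would give. This held for 75.0% of the 36 windows of members that passed the filter on low counts, for 3 of the 15 windows of members under it, and for 48.8% of all windows. Some members have several windows that share sequence. By gene, 21 of the 25 members with a window that passed the filter had a CpG-rich window, and 2 of the 9 under it. Among the windows of called genes ABCA13 was CpG-poor (ratio 0.17), whereas ABCA1 (0.78), ABCC9 (0.98) and ABCD3 (0.996) were rich. ABCG2 had 1 poor window (0.25) and 4 rich ones.

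Of the 43 members 30 passed the filter and were tested. 5 genes were called lower in KO libraries, namely ABCG2, ABCA1, ABCG1, ABCA13 and ABCC9, and 1 gene, ABCD3, was called higher. A call means an adjusted p under 0.05 over all 15647 tested genes and a fold change over 1.3. The 5 lower genes made up 16.7% of tested members, where 8.39% of all tested genes were called lower. The 1 higher gene made up 3.33%, where 7.57% of all tested genes were called higher. Without the fold threshold 6 members were lower and 4 higher, against 14.3% and 15.2% of all tested genes. Control and KO values were fully apart for 13 members (43.3%), and for 41.3% of all tested genes. The median log2 fold change was -0.0039 over tested members and -0.00084 over all tested genes, and 16 members lay below zero and 14 above. Leaving out KO replicate 2 gave 3 higher calls, with ABCC4 and ABCE1 added, and leaving out control replicate 2 gave 2, with ABCE1 added.

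**Figure D1:**
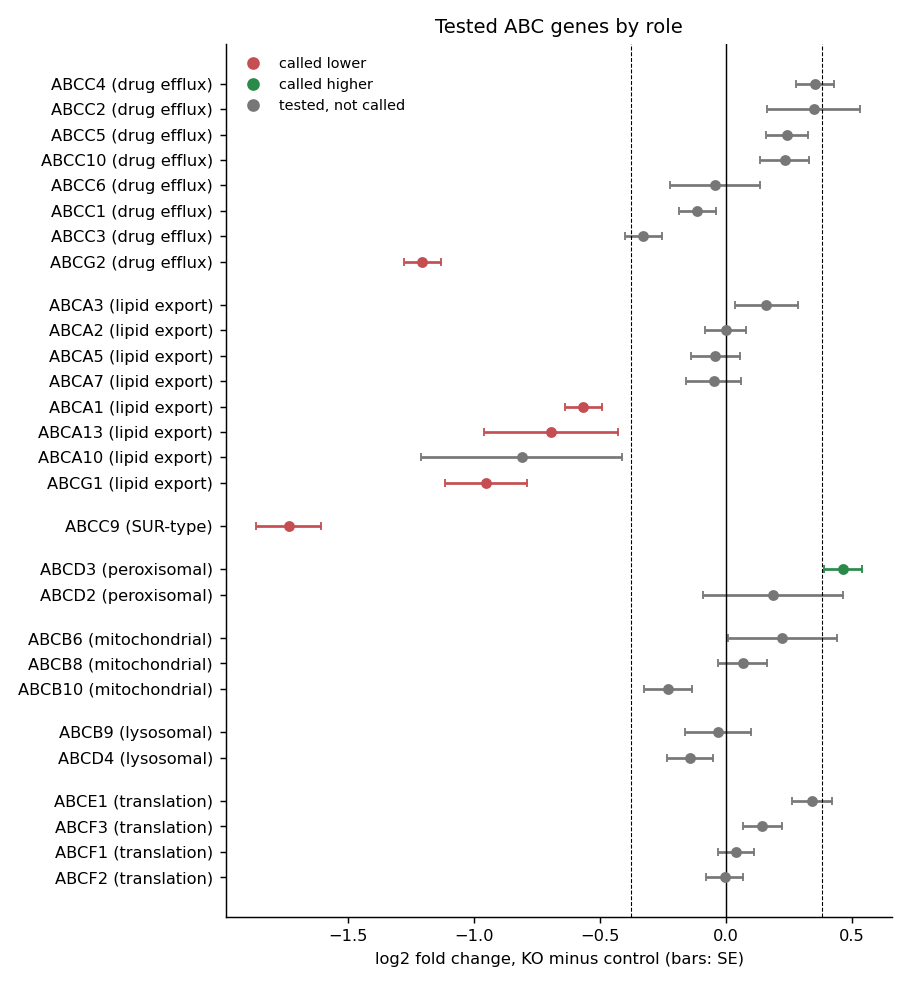
Log2 fold change (KO minus control, x axis) of 28 of the 30 tested ABC genes, grouped by role, where points are edgeR estimates, bars are SE and dashed lines mark 1.3-fold. ABCG2, ABCA1, ABCG1, ABCA13 and ABCC9 lie to the left of the lower line as called genes and ABCD3 to the right of the upper one, while the other 22 genes drawn were not called.

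Among drug efflux members, which leave out ABCB1, ABCG2 fell 2.31-fold, and it was the 1 called gene of 8 tested. ABCG2 (ENSG00000118777.6, hg19 chromosome 4, 89011302 to 89152780, minus strand) had 97.7, 96.0 and 96.9 CPM in control replicates 1 to 3 and 41.4, 41.0 and 43.5 CPM in KO replicates 1 to 3. The groups were far apart and each was tight. In bulk RNA fewer expressing cells and less transcript per cell cannot be told apart, here and for every gene that follows. Its mean went from 96.8 ± 0.840 to 42.0 ± 1.31 CPM (SD, n = 3), 43.3% of control, a shift of -1.21 ± 0.073 on the log2 scale (SE, edgeR adjusted p 1.56e-13).

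The subfamily C efflux genes moved less and in both directions. ABCC3 (MRP3), an exporter of glucuronide conjugates and bile acids, had 100.3, 91.8 and 91.0 CPM in control and 72.4, 79.8 and 73.0 CPM in KO libraries. All KO values were lower, and a shift of -0.33 ± 0.074 on the log2 scale (SE, edgeR adjusted p 0.00105) passed the p threshold but not the fold threshold. ABCC4 (MRP4), which exports cyclic nucleotides and prostanoids, had 62.5, 65.6 and 64.9 CPM in control and 87.5, 76.9 and 82.3 CPM in KO libraries. Here all KO values were higher, with a shift of 0.35 ± 0.074 on the log2 scale (SE, edgeR adjusted p 0.000524), also under 1.3-fold. ABCC5 (MRP5), another cyclic nucleotide exporter, had 48.2, 52.3 and 57.5 CPM in control and 64.1, 66.5 and 56.1 CPM in KO libraries. Its groups overlapped, with a shift of 0.24 ± 0.083 on the log2 scale (SE, edgeR adjusted p 0.0277).

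The other tested C members did not pass the p threshold. ABCC1 (MRP1), an exporter of glutathione conjugates and several anticancer drugs, had 133, 117 and 123 CPM in control and 120, 118 and 106 CPM in KO libraries, a shift of -0.11 ± 0.074 on the log2 scale (SE, edgeR adjusted p 0.257). ABCC10 (MRP7) had 13.1, 11.8 and 13.0 CPM against 14.3, 15.2 and 14.9, without overlap, and a shift of 0.23 ± 0.097 on the log2 scale (SE, edgeR adjusted p 0.0714). ABCC2 (MRP2), the canalicular conjugate exporter of liver, was low, at 1.96 ± 0.319 and 2.48 ± 0.188 CPM (SD, n = 3), a shift of 0.35 ± 0.18 on the log2 scale (SE, edgeR adjusted p 0.159). ABCC6, mutated in pseudoxanthoma elasticum, had 2.46 ± 0.284 and 2.36 ± 0.366 CPM (SD, n = 3, adjusted p 0.881). ABCC6 has pseudogene copies, and the authors' treatment of reads that match several places is not stated. Its counts, and those of any other member with such copies, are therefore uncertain.

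**Figure D2:**
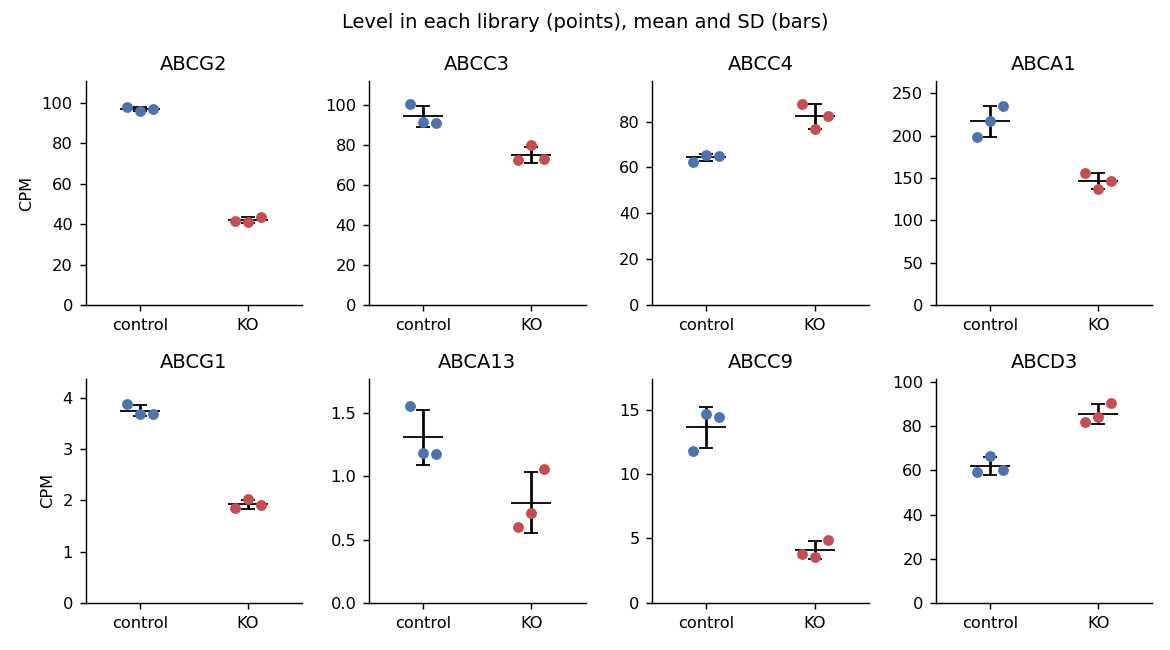
CPM (y axis, from 0) of 8 ABC genes in each control (blue) and KO (red) library, with black bars for mean and SD. The KO points of ABCG2, ABCC3, ABCA1, ABCG1, ABCA13 and ABCC9 lie below all control points, and those of ABCC4 and ABCD3 above them.

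Levels between genes were compared as RPKM, the CPM divided by the kilobases of exon. The order, sums and shares given here leave out ABCB1. It had 18.1 ± 0.806 RPKM in control and 4.27 ± 0.237 in KO libraries (SD, n = 3). In control libraries ABCG2 stood first among the efflux members at 17.3 ± 0.150 RPKM, above ABCC1 at 14.2 ± 0.939 (SD, n = 3). In KO libraries the order turned, with ABCC1 at 13.1 ± 0.846 RPKM above ABCC4 at 9.53 ± 0.612, ABCC3 at 7.81 ± 0.430 and ABCG2 at 7.49 ± 0.233, where ABCC3 and ABCG2 differed by less than their spread. Per length of the longest transcript, ABCG2 at 19.99 ± 0.173 RPKM still stood first in control libraries, near ABCC1 at 18.9 ± 1.24, but in KO libraries it lay at 8.66 ± 0.270, below ABCC3 at 13.2 ± 0.727 and ABCC5 at 10.6 ± 0.928 (SD, n = 3). The summed RPKM of the 8 tested efflux genes was 56.8, 54.3 and 55.7 in control and 46.8, 46.5 and 44.5 in KO libraries. Without ABCG2 the sum was 38.3 ± 1.13 and 38.4 ± 1.52 RPKM (SD, n = 3), which differed by less than their spread. ABCG2 made up 31.1 ± 0.447% of the efflux sum in control and 16.3 ± 0.974% in KO libraries, and ABCC4 made up 13.4 ± 0.636% and 20.8 ± 1.38% (SD, n = 3). With the longest transcript the ABCG2 share was 25.6 ± 0.350% and 12.9 ± 0.818%. These are transcript levels and say nothing of protein or of transport.

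**Figure D3:**
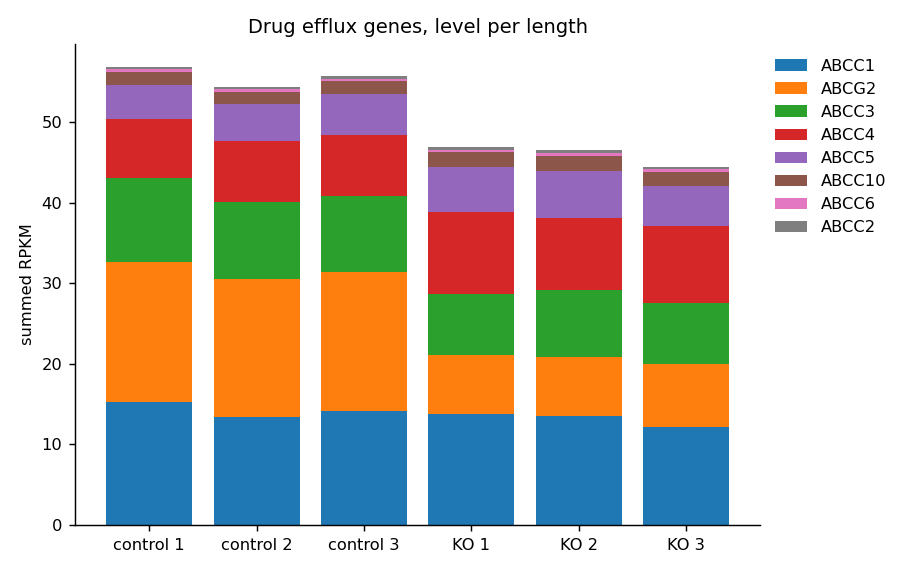
Summed RPKM (y axis, from 0) of the 8 tested drug efflux genes in each of the 6 libraries, stacked by gene. The ABCG2 layer shrinks from 17.3 to 7.49 RPKM on average while the other 7 genes add up to 38.3 and 38.4 RPKM. ABCB1 is not a member and is not drawn.

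Of the lipid export genes 8 of 16 were tested, and 3 were called lower (37.5%, against 8.39% of all tested genes) and none higher. ABCA13 of these 3 was not called under most alternatives. ABCA1, which loads cholesterol and phospholipid onto apolipoprotein A-I, was the member with the highest CPM in control libraries. ABCA1 (ENSG00000165029.11, hg19 chromosome 9, 107543287 to 107690436, minus strand) had 198, 218 and 235 CPM in control and 156, 138 and 146 CPM in KO libraries. The groups did not overlap, and its mean went from 217 ± 18.5 to 146.6 ± 9.15 CPM (SD, n = 3), a shift of -0.57 ± 0.074 on the log2 scale (SE, edgeR adjusted p 7.44e-07). ABCG1, which moves cholesterol towards mature HDL and within the cell, fell 1.94-fold at a much lower level. ABCG1 (ENSG00000160179.14, hg19 chromosome 21, 43619799 to 43717354, plus strand) had 3.88, 3.69 and 3.69 CPM in control and 1.85, 2.02 and 1.91 CPM in KO libraries, a shift of -0.95 ± 0.16 on the log2 scale (SE, edgeR adjusted p 3.94e-05).

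ABCA13, a very long protein of the A subfamily, was the weakest call. ABCA13 (ENSG00000179869.10, hg19 chromosome 7, 48211055 to 48687093, plus strand) had 1.56, 1.19 and 1.18 CPM in control and 0.598, 0.714 and 1.06 CPM in KO libraries, from 11 to 35 reads per library. The lowest control and the highest KO value lay close together, with a shift of -0.69 ± 0.26 on the log2 scale (SE, edgeR adjusted p 0.0478). The adjusted p was 0.214 in DESeq2. It was between 0.0213 and 0.156 with 1 library left out and stayed under 0.05 only without KO replicate 3, so the call rested on each of the other 5 libraries (0.152 without KO replicate 1, 0.156 without KO replicate 2, 0.155 without control replicate 1, 0.0569 without control replicate 2 and 0.0573 without control replicate 3).

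The remaining tested lipid genes were not called. ABCA2, an endolysosomal sterol transporter of the nervous system, had 44.7 ± 3.05 CPM in control and 44.6 ± 2.97 in KO libraries (SD, n = 3, adjusted p 0.987). ABCA3, ABCA5, ABCA7 and ABCA10 had log2 fold changes between -0.81 and 0.16, and the lowest of these, that of ABCA10, rested on 3 to 17 reads per library (adjusted p 0.129). The summed level of the 8 tested lipid genes was 25.7, 26.9 and 28.3 RPKM in control and 20.9, 20.1 and 20.2 RPKM in KO libraries, most of it ABCA1 (19.1 ± 1.63 and 12.9 ± 0.807 RPKM, SD, n = 3).

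ABCA1 and ABCG1 are textbook targets of LXR, so a list of 18 genes of LXR and cellular cholesterol handling was set beside them. Of 16 tested genes 7 were called lower (43.8%, against 8.39% of all tested genes) and 2 higher (12.5%, against 7.57%), with a median log2 fold change of -0.35. NPC2, which hands cholesterol out of the lysosome, went from 327 ± 4.23 to 211 ± 4.32 CPM (SD, n = 3, log2 fold change -0.63, adjusted p 1.42e-08). LPCAT3, an LXR target that makes polyunsaturated phospholipids, went from 135 ± 12.4 to 83.7 ± 4.03 CPM (SD, n = 3, log2 fold change -0.68, adjusted p 3.97e-08). CD36, a scavenger receptor, had a log2 fold change of -1.21 (adjusted p 1.58e-06). The genes called higher were the apolipoproteins APOC1, at 6.40 ± 0.893 and 10.4 ± 0.882 CPM (SD, n = 3), and APOE, at 0.373 ± 0.103 and 0.723 ± 0.062 CPM, which are LXR targets as well. The list thus held calls in both directions, with 12 of the tested genes below zero and 4 above. A part of LXR in these shifts was not tested.

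**Figure D4:**
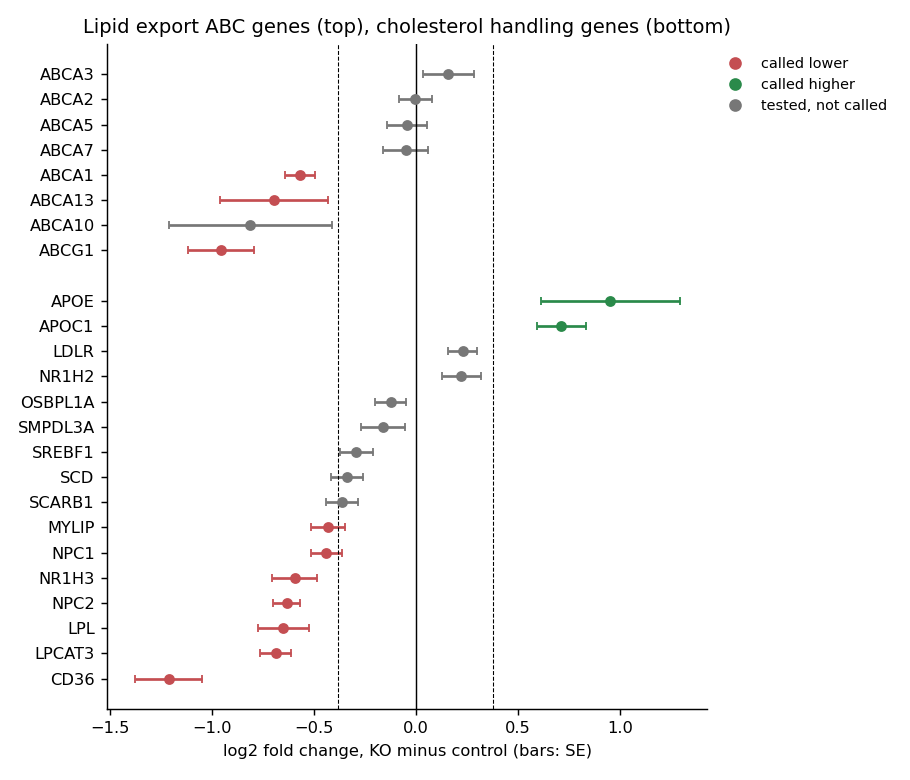
Log2 fold change (KO minus control, x axis; bars are SE) of the 8 tested lipid export ABC genes (top) and of the 16 tested genes of the LXR and cholesterol list (bottom), with dashed lines at 1.3-fold. In the list 7 genes are called lower, from MYLIP to CD36, and APOC1 and APOE higher.

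Of 23 genes for factors known to act on ABC genes 21 were tested, and 2 were called lower (9.52%, against 8.39% of all tested genes) and 1 higher (4.76%, against 7.57%). NR1H3, which encodes LXR alpha, had 16.3, 15.8 and 14.7 CPM in control and 9.83, 12.2 and 8.84 CPM in KO libraries (log2 fold change -0.59, adjusted p 0.000129). PPARG, a nuclear receptor of lipid storage and of urothelial differentiation, had 121, 127 and 123 CPM against 91.7, 87.8 and 92.4 (log2 fold change -0.45, adjusted p 1.04e-05).

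ABCC9 showed the largest change of any tested member. It encodes SUR2, the sulfonylurea receptor that surrounds the pore of ATP-sensitive potassium channels. ABCC9 (ENSG00000069431.6, hg19 chromosome 12, 21950323 to 22095477, minus strand) had 11.8, 14.7 and 14.4 CPM in control and 3.80, 3.57 and 4.89 CPM in KO libraries. All KO libraries lay far below the lowest control, and the mean went from 13.6 ± 1.61 to 4.09 ± 0.703 CPM (SD, n = 3), 3.33-fold lower, a shift of -1.74 ± 0.13 on the log2 scale (SE, edgeR adjusted p 1.39e-11). ABCC8, the SUR1 gene, had 0 to 3 counts per library and was not tested.

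The pore partner of SUR2 moved with it. KCNJ8, which encodes Kir6.1 and lies within 1 Mb of ABCC9, had 4.95, 4.22 and 4.05 CPM in control and 1.14, 2.02 and 1.78 CPM in KO libraries, a shift of -1.38 ± 0.18 on the log2 scale (SE, edgeR adjusted p 7.23e-07). Of the other 3 potassium channel genes listed, KCNJ11, KCNJ1 and KCNJ2, none passed the filter. KCNJ8 was the 1 called gene among the 10 other tested genes that start within 1 Mb of ABCC9. Of all tested genes 8.39% were called lower. The median log2 fold change of these 10 genes was 0.010.

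The peroxisomal D members were all tested. ABCD3 (PMP70), which imports branched-chain and long-chain acyl-CoA, was the 1 member called higher. ABCD3 (ENSG00000117528.7, hg19 chromosome 1, 94883945 to 94984222, plus strand) had 59.1, 66.7 and 60.3 CPM in control and 81.8, 84.2 and 90.7 CPM in KO libraries. The groups did not overlap, with a shift of 0.46 ± 0.075 on the log2 scale (SE, edgeR adjusted p 2.07e-05), 1.38-fold. ABCD2, which carries very long chain acyl-CoA, was near 1 CPM in both groups with a log2 fold change of 0.19.

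Peroxisome biogenesis and beta-oxidation genes were looked at beside ABCD3. Of 26 tested genes 0 were called lower in edgeR or DESeq2 (against 8.39% of all tested genes in edgeR). The 1 called higher (3.85%, against 7.57%) was ACOX3, an oxidase of branched-chain acyl-CoA. It had 18.3, 14.0 and 16.2 CPM in control and 27.2, 26.2 and 25.7 CPM in KO libraries (log2 fold change 0.70, adjusted p 1.33e-06). For the lower direction 0 genes also passed edgeR's adjusted p without the fold threshold, where 14.3% of all tested genes did. An unadjusted p under 0.05 in either direction was seen for 9 of the 26 genes and for 6221 of all 15647 tested genes. The median log2 fold change of the list was -0.0015.

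No mitochondrial member was called in edgeR or DESeq2. An unadjusted p under 0.05 in edgeR was seen for 1 of 4, and for 6221 of all 15647 tested genes. ABCB10, needed for heme synthesis, had 32.8, 35.0 and 34.2 CPM in control and 32.0, 23.5 and 31.6 CPM in KO libraries. All KO values were lower, 1 of them by much more than the others, with a shift of -0.23 ± 0.096 on the log2 scale (SE, edgeR adjusted p 0.0713). Without KO replicate 2 the shift was -0.093 (adjusted p 0.488), while the adjusted p was between 0.0344 and 0.0439 without KO replicate 1, KO replicate 3 or control replicate 1 and 0.0405 with the replicate block. Of 27 iron-sulfur and heme genes, all tested, 1 was called lower (3.70%, against 8.39% of all tested genes) and 0 higher (against 7.57%). The called gene was BOLA3, an iron-sulfur assembly factor (log2 fold change -0.42, adjusted p 0.00179). The 2 lysosomal members were not called by either tool, and 0 had an unadjusted p under 0.05. ABCD4, which moves cobalamin out of the lysosome, had 23.4 ± 0.756 and 21.1 ± 2.35 CPM (SD, n = 3, adjusted p 0.255), and ABCB9, a lysosomal peptide transporter, had 5.94 ± 0.878 and 5.79 ± 0.402 CPM (SD, n = 3, adjusted p 0.882). For ABCB9 24.6% of the exon length overlapped exons of other genes, and for ABCD4 6.99%. Of 15 genes of cobalamin handling, lysosomal membrane and peptide loading, MMAB was called lower (6.67%, against 8.39% of all tested genes) and TAP2 higher (6.67%, against 7.57%).

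The E and F members act on ribosomes, and ABCF1 and ABCF2 stood first and second of all tested members in RPKM over all exons in both groups. Per length of the longest transcript, ABCF2 at 27.8 ± 1.15 RPKM lay below ABCE1 at 30.3 ± 2.44 in KO libraries (SD, n = 3). The values that follow are over all exons. ABCF1 had 38.3 ± 2.44 and 39.4 ± 1.34 RPKM, and ABCF2 24.6 ± 2.01 and 24.4 ± 1.01 RPKM (SD, n = 3). Neither differed between the groups beyond the spread (log2 fold changes 0.039 and -0.0056, adjusted p 0.724 and 0.965). ABCE1, which splits ribosomes after termination, had 83.3, 101.5 and 94.2 CPM in control and 114.8, 109.9 and 128 CPM in KO libraries. Its groups did not overlap, with a shift of 0.34 ± 0.079 on the log2 scale (SE, edgeR adjusted p 0.00157), 1.26-fold and so under the fold threshold. Exons of ANAPC10 and OTUD4 overlapped 6.52% of its exon length, so its counts depend on how such reads were assigned. The promoter letters GTAAACA were found in both ABCE1 and ABCF1, and neither gene was called. Of 14 tested partner genes of ribosome rescue and recycling 0 were called in edgeR or DESeq2. In edgeR 8.39% of all tested genes were called lower and 7.57% higher. An unadjusted p under 0.05 was seen for 6 of the 14, and for 6221 of all 15647 tested genes. The same 6 passed the adjusted p in the higher direction under 1.3-fold, as did 15.2% of all tested genes in that direction with no fold threshold.

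Over the 30 tested members mean levels ran from 38.9 down to 0.0481 RPKM, with a median of 3.19. In control libraries ABCF1 and ABCF2 led, followed by ABCA1, ABCG2, ABCE1, ABCC1 and ABCF3. In KO libraries the order was ABCF1, ABCF2, ABCE1, ABCF3, ABCC1, ABCA1, ABCD3, ABCC4, ABCC3 and ABCG2. In control libraries ABCE1 at 14.9 ± 1.47 and ABCC1 at 14.2 ± 0.939 RPKM differed by less than their SDs, with ABCF3 at 12.4 ± 1.24. In KO libraries ABCF3 at 13.7 ± 0.546, ABCC1 at 13.1 ± 0.846 and ABCA1 at 12.9 ± 0.807 RPKM lay close together (SD, n = 3). The called genes ABCC9 (rank 22), ABCG1 (rank 23) and ABCA13 (rank 29) lay in the lower part of the order. The summed level of all 30 was 207 ± 4.94 RPKM in control and 198.5 ± 1.67 in KO libraries (SD, n = 3). The ranks given are of the mean over both groups, and with the longest transcript in place of all exons none of them moved by more than 3. The orders within each group are over all exons and depend on the length used. With the longest transcript ABCE1 lay above ABCF2 in KO libraries.

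**Figure D5:**
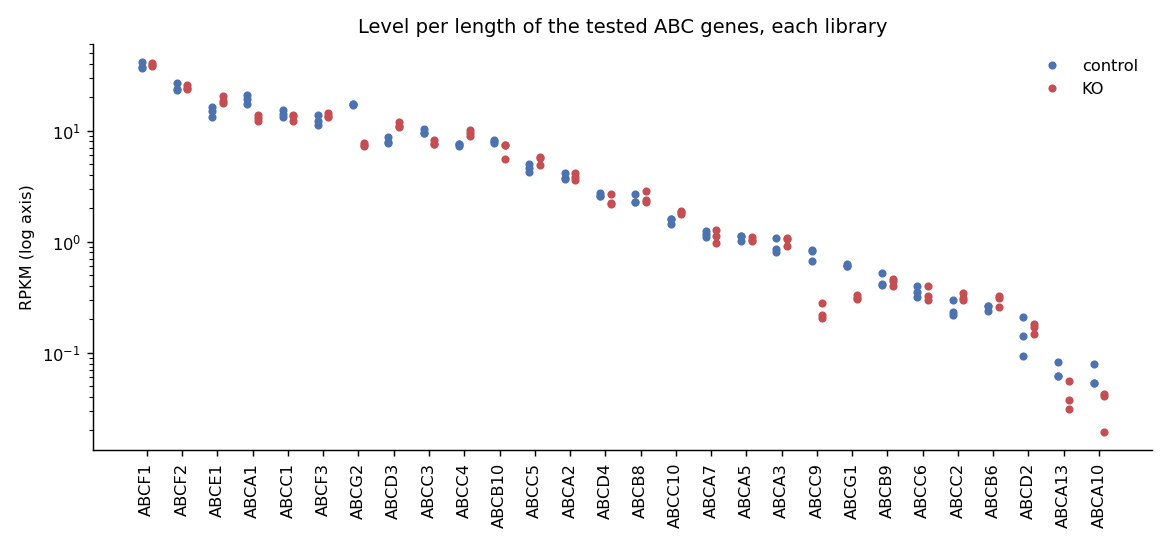
RPKM (y axis, log scale) of 28 of the 30 tested ABC genes in each control (blue) and KO (red) library, ordered by mean level. ABCG2, ABCC9 and ABCG1 show the clearest gaps between the colours, and the order runs from ABCF1 at 38.9 to ABCA10 at 0.0481 RPKM.

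The 13 members under the filter had at most 11 counts in any library. ABCB11, the bile salt export pump, ABCA8 and ABCG8 had 0 counts in every library, where a count of 0 allows up to 3 counts, or 0.118 to 0.163 CPM by library, for counting error only. ABCB5, ABCC11, ABCC12, ABCA12, ABCA4, ABCA6, ABCA9, ABCG4, ABCG5 and ABCC8 had counts in some libraries, and 7 of the 13 members never passed 3 counts. ABCC12 had 0 counts in each control library and 1, 2 and 5 in the KO libraries, so that no fold change can be given for it at this depth.

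To place each called member on its chromosome, the other tested genes starting within 1 Mb were counted. Names in this paragraph were chosen after their values were seen. For comparison, 8.39% of all tested genes were called lower and 7.57% higher, and no regional pattern was tested. Near ABCG2 1 of 14 genes was called lower (HERC5) and 1 higher (SPP1), and near ABCA1 1 of 10 was called lower (CT70). Near ABCG1 2 of 16 were lower (MX2 and TFF2) and 3 higher (C2CD2, CBS and RIPK4), and near ABCA13 2 of 10 were lower (SUN3 and C7orf57) and 2 higher (PKD1L1 and its antisense gene). CT70, with 5 to 16 reads per library, and SUN3, with 8 to 24, were not called in DESeq2 (adjusted p 0.185 and 0.253). Near ABCD3 0 of 14 were lower and 4 higher (ALG14, BCAR3, DNTTIP2 and F3). The medians of these neighbours lay between -0.27 and 0.24 on the log2 scale, the highest near ABCD3.

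Uptake carriers and conjugation enzymes of drug handling were set beside the members in a list that also held the efflux gene ABCB1. Of 25 tested genes 6, with ABCB1 among them, were called lower (24.0%, against 8.39% of all tested genes). The 2 called higher were 8.0%, near the 7.57% of all tested genes. The median log2 fold change of the list was 0.044. SLC22A3, an organic cation carrier, fell from 7.601 ± 0.138 to 3.26 ± 0.326 CPM (SD, n = 3, log2 fold change -1.21, adjusted p 2.43e-08). SLC22A4, an ergothioneine carrier, rose from 5.81 ± 0.285 to 11.2 ± 0.680 CPM (SD, n = 3, log2 fold change 0.94, adjusted p 1.38e-07), and SLCO2B1, an organic anion carrier, rose from 0.909 ± 0.0949 to 2.26 ± 0.319 CPM (SD, n = 3, log2 fold change 1.32, adjusted p 2.50e-05).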

How the data were processed

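The authors aligned paired reads of 75 bases to hg19 with STAR and assigned them to GENCODE version 19 genes with featureCounts of Subread. Versions and the settings for strand and for reads matching several places are not given in the sources used here. The deposited table holds raw counts per gene for each library, and 0 columns belonged to other samples. Symbols, biotypes, exons and coordinates came from GENCODE version 44 on GRCh37, the assembly of hg19, matched by identifier for 55538 genes (96.1%), not from version 19, whose symbols the member rule names. All replicates differed by more than sampling noise (chi-square per gene 2.94 to 10.1).

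Genes were filtered with filterByExpr, scaled by TMM and tested in edgeR 4.0.16 (R 4.3.3) by a robust quasi-likelihood F test on group alone, and every adjusted p (Benjamini-Hochberg) is over all 15647 tested genes. Calls needed an adjusted p under 0.05 and more than 1.3-fold, the study's thresholds. CPM and RPKM were computed from the deposited counts. The procedure was tested on simulated counts. Alternatives were DESeq2 1.42.0, other scalings and filters, a block on replicate number, leaving out single libraries, no fold threshold and another gene length.

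Members, roles and lists were chosen with earlier results of these data known. Named are the called members, all tested efflux genes, in each other role the 2 genes highest in RPKM and the gene with the largest change, and at most 4 called genes per list with the smallest p. Some genes these rules would name, 2 tested members among them, are not reported here. Protein features were not analysed here. PECAM1, an endothelial marker, was not matched.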

Additional observations from a re-analysis of the deposited data

How the results depend on the processing

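Precision is limited by 3 libraries a group and, for low members such as ABCA13, by few reads. ABCG2, ABCA1, ABCG1, ABCC9 and ABCD3 kept their calls in all 12 refits, with log2 fold changes of -1.24 to -1.19, -0.64 to -0.50, -0.99 to -0.93, -1.90 to -1.63 and 0.41 to 0.52. Same-numbered libraries did not deviate together (correlations -0.072 to 0.050), which cannot settle whether they were prepared in pairs. With the replicate block 5 members were lower and 1 higher with a median log2 fold change of -0.0029. Members called higher numbered 2 with no filter (ABCC12 added, on 8 reads), 4 with no fold threshold and 1 to 3 with a library left out, and members called lower 4 to 5 with a library left out and 6 with no fold threshold. The median over members was -0.050 to 0.053 with a library left out, the highest value without control replicate 1. ABCA13 was not called in DESeq2 (-0.71, adjusted p 0.214) or with no filter (-0.70, adjusted p 0.0714), and was not tested at a mean of at least 50 counts; the cause was not tested.

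Some genes near zero changed sign. ABCA2 was 0.0012 in DESeq2. With a library left out ABCA2 ran from -0.052 to 0.047, ABCB9 from -0.099 to 0.083, ABCC6 from -0.19 to 0.040 and ABCF2 from -0.054 to 0.055. ABCC5 lost its adjusted p under 0.05 without KO replicate 1 or 2 or without control replicate 1 or 2 (highest 0.134).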
